A study of Mus musculus with 8 samples.

Results

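The genes described here are the replication-dependent histone genes, taken as every listed gene whose symbol begins with Hist1h, Hist2h, Hist3h or Hist4h. There were 37 such genes among the 10453 listed, made up of 4 H1, 9 H2A, 9 H2B, 6 H3 and 9 H4 genes. Another 33 symbols of this form in the mouse name table were not analysed here. RNA and ribosome footprints, the short mRNA stretches that ribosomes protect from nuclease, were measured in B16, a mouse melanoma line. Cells labelled Mettl5 KO, edited with CRISPR/Cas9, were compared with WT B16 cells. METTL5 is a methyltransferase that places m6A on 18S rRNA, which the series title links to genes of the stress response. The 4 groups were KO footprints, WT footprints, KO input RNA and WT input RNA, with 2 libraries each, from cells given cycloheximide to stall ribosomes. Whether the KO line is 1 clone is not given in the labels. Nothing in them says that the libraries of a group came from separate cultures, so the spread behind each p-value may be technical.

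Histones package DNA. Paired H3 and H4 and paired H2A and H2B form the core of the nucleosome, and H1 binds the linker DNA between cores. Replication-dependent histone genes lie in clusters, often as divergent H2A and H2B neighbours, and are transcribed in S phase, when new DNA needs new histones. Their mRNAs mostly end in a conserved stem-loop bound by SLBP in place of a poly(A) tail, and SLBP takes part in their processing, translation and decay. Methods that select or prime on poly(A) therefore undercount them. A label calls the input polyA RNA and another names a ribosomal RNA depletion, and which applies is not settled. In bulk cells, fewer cells in S phase and less histone RNA per cell cannot be told apart.

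Of the 37 genes, 29 lie on chromosome 13 (the Hist1 genes), 6 on chromosome 3 (the Hist2 genes), and Hist3h2a and Hist4h4 on chromosomes 11 and 6. RefSeq promoters (build GRCm38.p6, 250 bases before to 50 after a start) were matched for 32 of them, with 33 promoters in all. The 150 bases before the start are printed below for H2B genes, because H2B genes gave both the largest KO increases in footprints and the gene with the most footprints. Capitals mark the octamer ATTTGCAT, CCAAT or TATAAA on either strand.
Hist1h2bh (chr13:23543445-23543594, minus strand): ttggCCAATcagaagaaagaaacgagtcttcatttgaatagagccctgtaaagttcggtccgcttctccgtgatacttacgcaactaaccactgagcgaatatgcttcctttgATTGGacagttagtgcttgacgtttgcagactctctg
Hist1h2bk (chr13:22035671-22035820, plus strand): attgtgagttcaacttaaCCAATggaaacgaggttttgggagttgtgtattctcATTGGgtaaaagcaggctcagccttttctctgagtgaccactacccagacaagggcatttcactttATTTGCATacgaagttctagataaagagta
Hist1h2bj (chr13:22043048-22043197, plus strand): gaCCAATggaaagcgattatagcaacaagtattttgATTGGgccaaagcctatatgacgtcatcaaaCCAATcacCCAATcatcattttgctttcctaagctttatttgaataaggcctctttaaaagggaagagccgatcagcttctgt
Hist1h2bb (chr13:23746584-23746733, plus strand): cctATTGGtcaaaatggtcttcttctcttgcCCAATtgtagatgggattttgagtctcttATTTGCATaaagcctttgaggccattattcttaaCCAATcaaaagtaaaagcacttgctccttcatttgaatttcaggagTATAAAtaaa
Hist2h2bb (chr3:96269550-96269699, plus strand): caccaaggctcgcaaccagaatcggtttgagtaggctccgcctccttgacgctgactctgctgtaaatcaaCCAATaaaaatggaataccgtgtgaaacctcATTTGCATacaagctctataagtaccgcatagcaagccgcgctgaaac

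The octamer, known as a binding site of OCT1 in H2B promoters, was found in 5 of 8 H2B and 6 of 9 H2A promoters. Both strands of the 250 bases before each start were searched for each motif, and the bases after the start were not. The octamer was found in 1.6% of the 32851 promoters in the table (526). No octamer letters were in the windows of the 4 H1, 4 H3 and 8 H4 genes matched. CCAAT was in 28 of 33 histone promoters, against 33.8% of all promoters, and TATAAA was in 13 of 33, against 12.4% of all. Promoters of divergent H2A and H2B neighbours overlap, so a match can count for both genes. No match of CCAAT or TATAAA overlapped an octamer match (0 cases). Hist1h2bk, Hist1h2bb and Hist2h2bb had an octamer in the printed window, and Hist1h2bh and Hist1h2bj had none. A pair of H4 promoters is shown because these genes had the largest KO decreases in footprints. CCAAT was in 3 of 8 H4 promoters.
Hist1h4b (chr13:23756787-23756936, plus strand): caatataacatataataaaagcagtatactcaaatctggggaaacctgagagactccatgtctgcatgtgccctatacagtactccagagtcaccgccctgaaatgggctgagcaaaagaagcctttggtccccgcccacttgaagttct
Hist1h4d (chr13:23581418-23581567, plus strand): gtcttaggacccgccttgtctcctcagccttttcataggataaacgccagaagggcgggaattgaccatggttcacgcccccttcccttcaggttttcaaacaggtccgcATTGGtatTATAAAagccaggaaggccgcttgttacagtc

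Listed input reads numbered between 11927567 and 18823632 per library and listed footprint reads between 2279456 and 3098930. Mettl5 itself had 75.7 and 95.7 normalized reads in KO input, against 114 and 111 in WT input (log2 fold change -0.40 ± 0.10 SE, limma adjusted p = 0.00162). Its footprints were 109 and 112 in KO cells and 91.1 and 113 in WT cells (log2 0.12 ± 0.23, adjusted p = 0.812), so these counts do not check the edit. All 10 melanocyte markers sought were listed, with sums of 82403 and 81990 in KO input and 72488 and 72915 in WT input. Fibroblast markers (4 of 7 listed) summed to 69.9 and 76.2 in KO input and 93.4 and 90.8 in WT input. Leukocyte markers (1 of 5 listed) summed to 7.36 and 7.03 in KO input and 8.78 and 7.24 in WT input, and epithelial or endothelial markers (2 of 7) to 15.3 and 16.4 in KO and 10.4 and 16.9 in WT input. In footprints the melanocyte sums were 194784 and 196375 in KO cells and 148628 and 149120 in WT cells. Of the 10 markers, limma called 7 higher and 0 lower in KO footprints, against 6.3% and 6.22% of all genes. In input it called 8 higher and 1 lower, against 17.9% and 18.6% of all genes. The part of these differences in the results was not tested.

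The first comparison set footprints against input RNA within each genotype. Histone genes were scarce in input and abundant in footprints, in every class. They held 1.77% of listed footprint reads in each KO library, with 95% Wilson intervals of 1.75 to 1.78% and 1.76 to 1.79%. In WT footprints they held 2.01% and 2.02%, with intervals of 1.997 to 2.03% and 2.01 to 2.04%. In input they held 0.0228% and 0.0236% of KO reads (0.0221 to 0.0235% and 0.0228 to 0.0244%) and 0.0215% and 0.0220% of WT reads (0.0208 to 0.0223% and 0.0212 to 0.0229%). These intervals cover counting error only. Histone shares of footprints were lower in the KO libraries and shares of input were higher, with no overlap of libraries, and the share in footprints was far above that in input in both genotypes.

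The ratio of mean footprints to mean input shows this per gene. Values of each library are scaled to a common level, so the median gene had a ratio of 1.003 in both genotypes. The median histone gene had a ratio of 58.7 in KO cells and 72.3 in WT cells. A ratio over 10 was found for 31 of 37 histone genes in KO cells and 29 of 37 in WT cells, against 75 (0.717%) and 82 (0.784%) of all listed genes. Of the 50 genes with the highest ratio, 27 were histone genes in KO cells and 27 in WT cells. By class, the median ratio was 168 in KO and 158 in WT cells for H2A, 38.7 and 25.0 for H2B, 9.48 and 18.0 for H3, 58.7 and 92.3 for H4 and 80.4 and 91.3 for H1. The class median was higher in KO cells for H2A and H2B and lower for the other classes, differences that were not tested. This ratio takes footprints of the coding region over reads of the whole RNA, so it describes the 2 kinds of library and is not a measure of ribosomes per mRNA for an RNA that input undercounts.

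**Figure D1:**
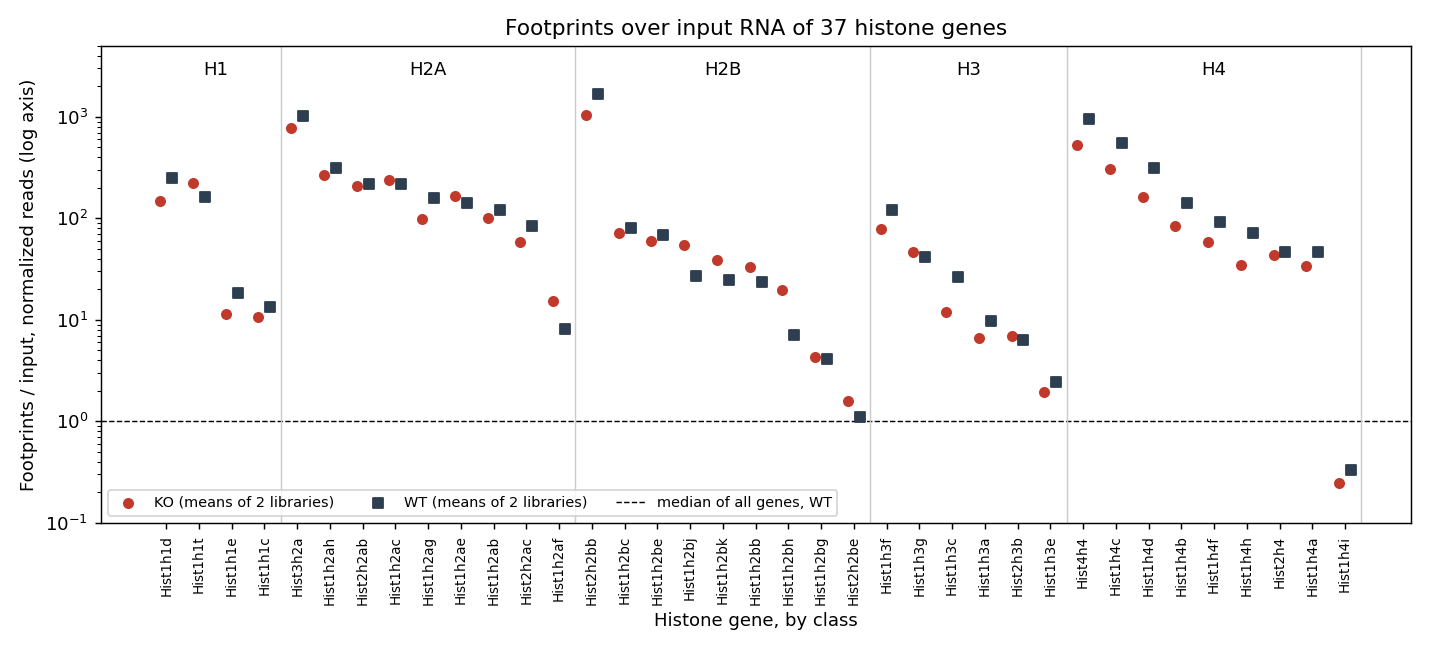
Ratio of mean footprints to mean input (log axis) for 37 histone genes, grouped by class, with KO as circles and WT as squares (each ratio from the means of 2 libraries) and the median of all genes dashed. Most genes sit far above the dashed line, Hist1h4i sits below it in both genotypes, and H4 genes sit lower in KO than in WT.

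Hist2h2bb, an H2B gene on chromosome 3, had the highest ratio of all listed genes, 1039 in KO cells and 1683 in WT cells. It had 27004 and 27037 normalized reads in KO footprints and 28720 and 28103 in WT footprints, against 22.7 and 29.3 in KO input and 14.0 and 19.8 in WT input. Next came Hist3h2a, an H2A gene, with ratios of 771 in KO and 1019 in WT cells, and Hist4h4 with 526 and 948. At the other end, Hist1h4i, an H4 gene, had 11.4 and 14.8 in KO footprints and 14.8 and 9.20 in WT footprints, against 50.3 and 55.9 in KO input and 38.3 and 33.8 in WT input. Its footprints lay below its input in each genotype. Hist2h2be, an H2B gene, had few reads of either kind, with 8.57 and 17.7 in KO footprints and 2.12 and 23.0 in WT footprints, against 7.97 and 8.60 in KO input and 10.4 and 12.6 in WT input. Hist1h3e had a ratio of 1.96 in KO and 2.42 in WT cells, and Hist1h2bg of 4.29 and 4.12.

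With limma (trended variance, log2 of value + 1, Benjamini-Hochberg adjusted p under 0.05 over all genes), footprints were higher than input for 35 histone genes and lower for 1 in KO cells, where 38.1% of all genes were called higher and 37.5% lower. The counts were also 35 and 1 in WT cells, where 39.4% and 39.7% of all genes were called. The gene called lower was Hist1h4i (log2 -1.95 ± 0.26 SE, adjusted p = 0.000793 in KO; -1.54 ± 0.32, adjusted p = 0.003 in WT), and Hist2h2be was not called. This fit gives a gene 1 variance moderated by its mean over both kinds of library, so errors can be too small for a gene with few input reads and many footprints. The 7 listed replication-independent histone genes are known for polyadenylated mRNAs, though H2afx also gives a stem-loop form. They had ratios between 0.125 and 2.81 in KO cells and between 0.108 and 2.83 in WT cells. H2afx was the highest of these and H3f3b and Cenpa the lowest.

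Levels can be compared between genes only per length. Per 100 bases of RefSeq gene span, footprints were highest for Hist2h2bb (5481 normalized reads in KO and 5763 in WT cells) and Hist1h4d (4230 in KO and 6299 in WT). Hist1h4d stood above Hist2h2bb in WT cells and below it in KO cells. Hist1h4c followed with 1752 in KO and 2179 in WT cells, and Hist4h4 with 1640 and 1790. Spans of Hist1h2be, Hist1h2bc and Hist2h2be hold introns or other long stretches, and their values per length are not comparable with the rest. H4 genes encode mostly the same protein, and genes within the H2A, H2B and H3 classes are closely alike. The sources used here do not say how short reads that match several genes were assigned, so each value per gene is uncertain and class sums are given as well.

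The second comparison asked how input RNA differed in KO cells. Of 37 histone genes, 13 rose and 1 fell, with a median log2 fold change of 0.26, against 17.9% and 18.6% of all genes called higher and lower and a median of 0.00 over all genes. The genes that rose were 6 of 9 H4, 5 of 9 H2B and 2 of 6 H3 genes, and the gene that fell was H2A Hist1h2af. Libraries of the genotypes did not overlap for 21 genes with higher KO values and 2 with lower KO values, against 33.4% and 33.0% of all genes.

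Hist1h2af had 100 and 102 normalized reads in KO input, against 249 and 264 in WT input (log2 -1.34 ± 0.07 SE, limma adjusted p = 3.47e-18). It was the histone gene with the most WT input reads, and KO libraries were well below WT libraries. Its footprints were 1557 and 1530 in KO cells and 2117 and 2046 in WT cells. The largest increase was that of Hist1h3f, an H3 gene, with 22.7 and 26.6 in KO input and 10.8 and 16.4 in WT input (log2 0.84 ± 0.21, adjusted p = 0.00181). Hist1h2bk, an H2B gene, had 12.9 and 12.9 in KO input, against 6.38 and 7.73 in WT input (log2 0.79 ± 0.27, adjusted p = 0.0175). These are 42 and 33 reads in KO libraries against 16 and 16 in WT libraries.

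Among H4 genes, Hist1h4h had 19.0 and 18.8 in KO input and 12.4 and 10.1 in WT input (log2 0.70 ± 0.22, adjusted p = 0.0119). Hist4h4 had 11.3 and 16.0 in KO input and 8.38 and 8.21 in WT input (log2 0.64 ± 0.26, adjusted p = 0.0487). Hist1h4d, the H4 gene with the most reads, had 96.6 and 112 in KO input and 79.0 and 81.1 in WT input (log2 0.37 ± 0.10, adjusted p = 0.00241). KO libraries were above WT libraries for each of these. Hist1h4c (21.5 and 21.9 in KO, 18.0 and 11.6 in WT; log2 0.55, adjusted p = 0.04), Hist1h4i (log2 0.55) and Hist1h4f (log2 0.51) also rose. Of H2B and H3 genes, Hist1h2be had 41.7 and 35.9 in KO input and 21.5 and 26.1 in WT input (log2 0.69 ± 0.16, adjusted p = 0.00101). Hist1h3c had 45.7 and 44.5 in KO input and 28.7 and 29.5 in WT input (log2 0.62 ± 0.15, adjusted p = 0.000983). Hist2h2bb (log2 0.60), Hist1h2bc (0.52) and Hist1h2bg (0.28) completed the H2B genes that rose, all with KO libraries above WT libraries.

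The increases rested on few reads, 7784 KO and 5731 WT input reads over all 37 genes. edgeR on the recovered reads called 11 higher and 1 lower, against 17.9% and 18.9% of the 10329 genes it tested. DESeq2 called 0 higher and 1 lower, against 7.8% and 8.67% of all genes, and had 6 higher at an unadjusted p under 0.05. In either direction, 7 of the 37 histone genes had such an unadjusted p by DESeq2, against 2692 of all 10453 genes. Without KO input library 2 the increases numbered 4, and without KO input library 1 they numbered 8, whereas the decrease of Hist1h2af was called under every setting run.

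The third comparison asked how footprints differed in KO cells. Of 37 histone genes, 12 rose and 14 fell, against 6.3% and 6.22% of all genes. H2B genes mostly rose (6 of 9, with 1 lower), and H4 genes mostly fell (5 of 9, with 1 higher). Of H2A genes 2 rose and 5 fell, of H3 genes 2 rose and 1 fell, and of H1 genes 1 rose and 2 fell. Libraries of the genotypes did not overlap for 14 genes with higher and 19 with lower KO values, against 27.0% and 25.6% of all genes. Most histone genes had more footprint reads than the median listed gene, which had 71 to 98 per library. Small changes can then pass the threshold or separate the libraries, and shares over genes of like depth were not counted. Leaving out each library in turn, 6 to 7 H2B genes rose and 4 to 6 H4 genes fell. edgeR also called 12 higher and 14 lower, against 7.83% and 8.01% of the 9301 genes it tested. DESeq2 called 7 higher and 9 lower, against 4.55% and 4.32% of the 5184 genes to which it gave an adjusted p. It gave none to 5 histone genes with low counts. By DESeq2, 5 H2B genes rose and 1 fell, and 3 H4 genes fell. Without the trend of variance on level, limma called 0 histone genes in each direction, where 8 were higher and 10 lower at an unadjusted p under 0.05. The shares of all genes without the trend are not given here, so these counts cannot be set against them.

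**Figure D2:**
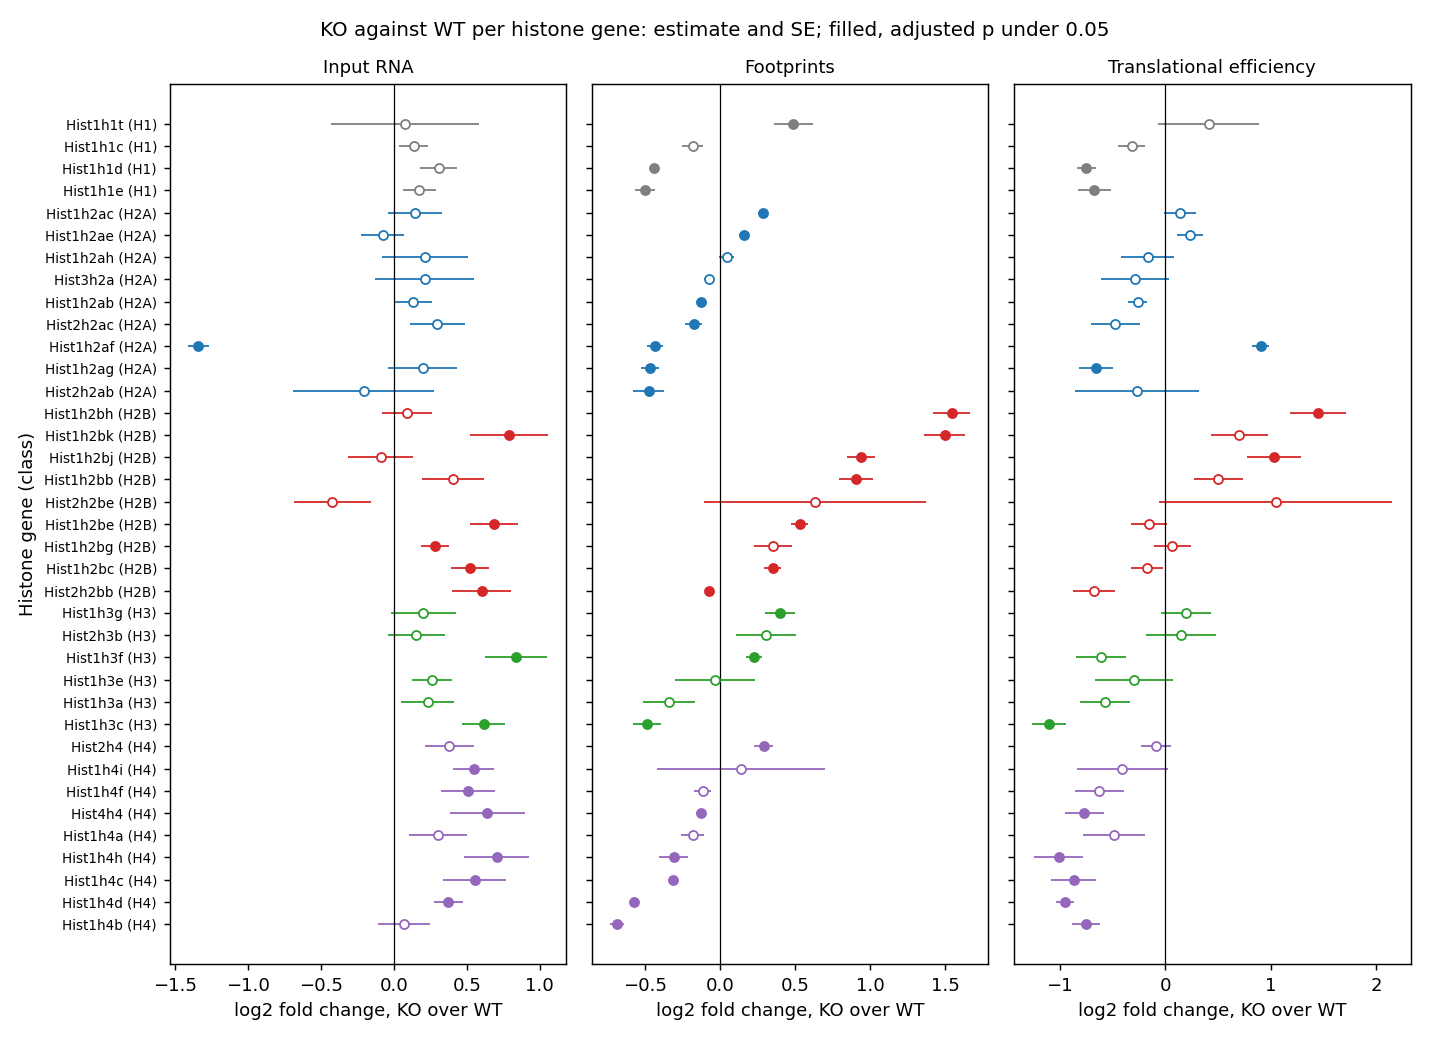
Log2 fold change of KO over WT (points) with its SE (bars) for 37 histone genes, by class and footprint change, in input RNA, footprints and translational efficiency, with filled points for an adjusted p under 0.05. H2B genes reach 1.54 in footprints, H4 genes lie mostly left of 0 there and right of 0 in input, and Hist1h2af is far left in input.

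The 4 H2B genes with the largest footprint increases had WT footprint means between 176 and 445 normalized reads. Hist1h2bh (chr13:23542923-23543444) had 583 and 679 normalized reads in KO footprints, against 225 and 207 in WT footprints. Its log2 fold change was 1.54 ± 0.12 SE (limma adjusted p = 1.04e-09), a 2.91-fold increase. Hist1h2bk (chr13:22035821-22036320) had 531 and 467 in KO footprints and 182 and 170 in WT footprints (log2 1.49 ± 0.14, adjusted p = 1e-08). KO libraries stood far above WT libraries for these genes. Hist1h2bj had 840 and 868 in KO footprints and 462 and 428 in WT footprints (log2 0.94 ± 0.09, adjusted p = 3.54e-08). Hist1h2bb had 600 and 662 in KO footprints and 360 and 313 in WT footprints (log2 0.91 ± 0.11, adjusted p = 1.54e-06). The promoters of these 4 genes, printed above, include windows with and without an octamer.

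Hist1h2be had 2434 and 2245 in KO footprints and 1551 and 1685 in WT footprints (log2 0.53 ± 0.06, adjusted p = 1.54e-07). Hist1h2bc had 4328 and 4245 in KO footprints and 3073 and 3681 in WT footprints (log2 0.35 ± 0.05, adjusted p = 3.67e-05), where DESeq2 gave 0.0645. Hist2h2bb, with the most footprints, was slightly lower in KO cells (values above; log2 -0.07 ± 0.02, adjusted p = 0.00386). The H2B class thus held both the largest increases and a small decrease in its most abundant gene.

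**Figure D3:**
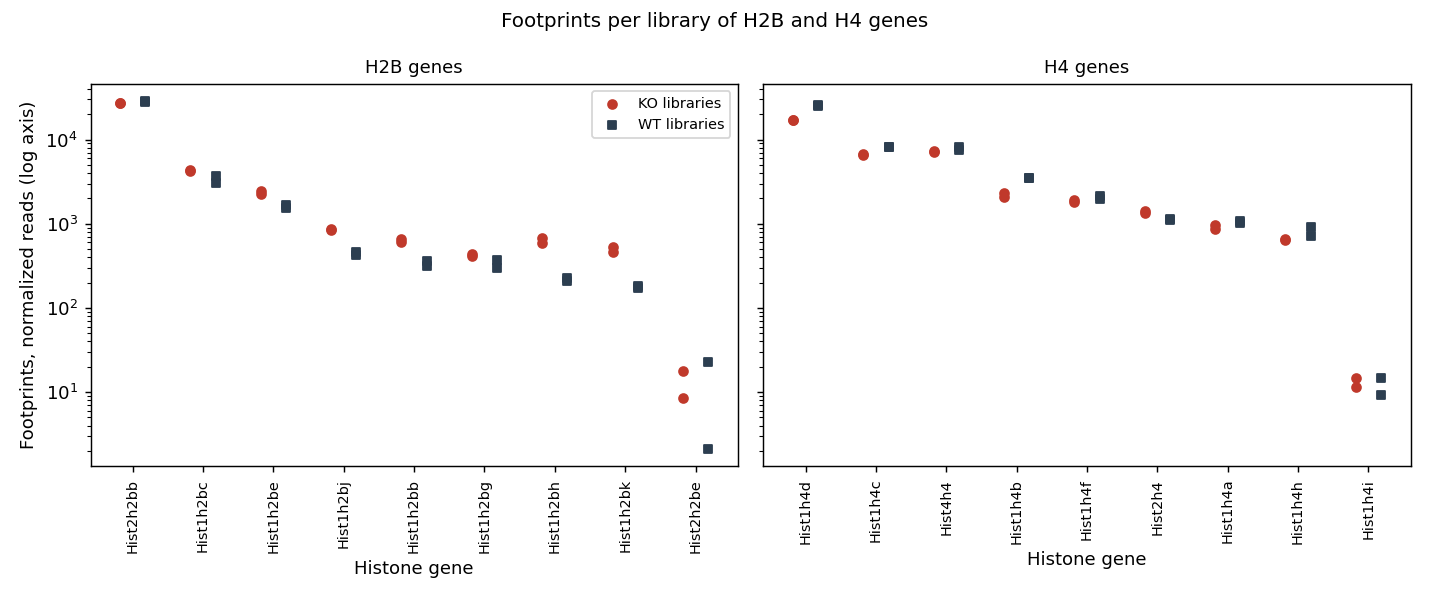
Footprints per library in normalized reads (log axis) for 9 H2B genes (left) and 9 H4 genes (right), with KO libraries as circles left of WT libraries as squares. Hist1h2bh and Hist1h2bk have KO libraries between 467 and 679 and WT libraries between 170 and 225, and Hist1h4d has KO libraries at 17143 and 16869 and WT libraries at 25045 and 25597.

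Among H4 genes, Hist1h4d (chr13:23581568-23581969) had 17143 and 16869 in KO footprints, against 25045 and 25597 in WT footprints (log2 -0.57 ± 0.02, limma adjusted p = 1.79e-17). Hist1h4b (chr13:23756937-23757386) had 2077 and 2289 in KO footprints and 3476 and 3529 in WT footprints (log2 -0.68 ± 0.05, adjusted p = 1.03e-10). KO libraries were below WT libraries by far more than the spread within a genotype. Hist1h4c had 6473 and 6670 in KO footprints and 8208 and 8136 in WT footprints (log2 -0.31 ± 0.03, adjusted p = 1.11e-08). Hist1h4h had 640 and 665 in KO footprints and 911 and 715 in WT footprints (log2 -0.31 ± 0.10, adjusted p = 0.0386). Hist4h4 fell less, with 7159 and 7243 in KO footprints and 7615 and 8104 in WT footprints (log2 -0.13 ± 0.03, adjusted p = 0.00678). DESeq2 gave Hist1h4h and Hist4h4 adjusted p of 0.222 and 0.061. Hist2h4 rose, with 1354 and 1424 in KO footprints and 1121 and 1150 in WT footprints (log2 0.29 ± 0.06, adjusted p = 0.00296; DESeq2 0.0854).

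Of the somatic H1 genes, whose proteins bind linker DNA, Hist1h1d and Hist1h1e fell. Hist1h1d had 8024 and 8413 in KO footprints and 10921 and 11403 in WT footprints (log2 -0.44 ± 0.03, adjusted p = 1.77e-11). Hist1h1e had 940 and 954 in KO footprints and 1352 and 1324 in WT footprints (log2 -0.50 ± 0.07, adjusted p = 6.36e-06). KO libraries were below WT libraries for each. Hist1h1c had 1068 and 995 in KO footprints and 1136 and 1205 in WT footprints, which did not overlap but did not pass the test (log2 -0.18, adjusted p = 0.0984). Hist1h1t, the H1 gene known from testis, had 360 and 381 in KO footprints and 261 and 267 in WT footprints (log2 0.49 ± 0.13, adjusted p = 0.0126; DESeq2 0.177). Its input held only 7 and 3 reads in KO libraries and 2 and 5 in WT libraries.

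H2A genes moved in both directions. Hist1h2ac had 5879 and 5893 in KO footprints and 4773 and 4890 in WT footprints (log2 0.28 ± 0.03, adjusted p = 5.68e-07). Hist1h2ae, the H2A gene with the highest mean over all libraries, had 6425 and 6555 in KO footprints and 5907 and 5715 in WT footprints (log2 0.16 ± 0.03, adjusted p = 0.00091). Hist1h2ab had 5296 and 5426 in KO footprints and 5970 and 5757 in WT footprints (log2 -0.13 ± 0.03, adjusted p = 0.00953; DESeq2 0.0976). Hist1h2ac and Hist1h2ae were higher and Hist1h2ab lower in KO libraries, without overlap. Hist1h2ag had 1354 and 1258 in KO footprints and 1806 and 1791 in WT footprints (log2 -0.46 ± 0.06, adjusted p = 3.25e-06). Hist2h2ab had 417 and 461 in KO footprints and 585 and 635 in WT footprints (log2 -0.47 ± 0.10, adjusted p = 0.00231; DESeq2 0.0599). Hist1h2af (log2 -0.43 ± 0.05, adjusted p = 2.14e-06) and Hist2h2ac (-0.17; DESeq2 adjusted p = 0.275) also fell. DESeq2 called 2 H2A genes higher and 2 lower.

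Of the H3 genes, 2 rose and 1 fell. Hist1h3c had 526 and 561 in KO footprints and 723 and 800 in WT footprints (log2 -0.48 ± 0.09, adjusted p = 0.000587). Hist1h3g had 740 and 771 in KO footprints and 517 and 635 in WT footprints (log2 0.40 ± 0.10, adjusted p = 0.00675). Hist1h3f had 1988 and 1885 in KO footprints and 1664 and 1644 in WT footprints (log2 0.23 ± 0.05, adjusted p = 0.00599). DESeq2 gave these increases adjusted p of 0.113 and 0.126. Hist1h3c was lower and the other pair higher in KO libraries, without overlap of libraries.

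Neighbouring H2A and H2B genes that share the stretch between them were set side by side. Starts of Hist1h2ag and Hist1h2bj lie 248 bases apart on opposite strands, and footprints of Hist1h2ag fell (log2 -0.46) where those of Hist1h2bj rose (0.94). The ratio of H2B to H2A footprints was 0.620 and 0.690 in KO libraries and 0.256 and 0.239 in WT libraries. For Hist1h2ah and Hist1h2bk, 177 bases apart, the log2 fold changes were 0.04 and 1.49, and the ratio was 0.225 and 0.210 in KO libraries and 0.0799 and 0.0786 in WT libraries. In each of these pairs the H2B share was larger in KO libraries, without overlap. Hist1h2ae and Hist1h2bg, 179 bases apart, moved by 0.16 and 0.35, with a ratio of 0.0640 and 0.0667 in KO libraries and 0.0624 and 0.0523 in WT libraries. Hist1h2ac and Hist1h2bc moved by 0.28 and 0.35, with ratios that overlapped (0.736 and 0.720 in KO, 0.644 and 0.753 in WT libraries). The ratios of Hist2h2be to its neighbour Hist2h2ac, 191 bases away, rested on few reads and overlapped between genotypes. So did its ratios to Hist2h2ab, which lies beyond Hist2h2ac and is not a direct neighbour.

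The fourth comparison was translational efficiency, the difference between the KO change in footprints and that in input, tested as the interaction of genotype and library kind over all 8 libraries. It was higher in KO cells for 3 histone genes and lower for 9, against 5.11% and 4.66% of all genes, with a median log2 of -0.29, against 0.01 over all genes. The genes with a lower value were 5 of 9 H4 genes, 2 H1 genes, 1 H2A and 1 H3 gene, and all 9 H4 genes had a negative estimate. edgeR called 3 higher and 9 lower, against 6.25% and 6.75% of the 10332 genes it tested. It gave an adjusted p of 1 to Hist1h4d and Hist2h2bb, which have the most footprints. It did the same for Hist1h4d in footprints against input, at log2 estimates of 7.32 in KO and 8.28 in WT cells. For these genes the edgeR value therefore does not show an absence of change, and they count as not called. DESeq2 called 3 higher and 10 lower, against 6.08% and 5.77% of the 8629 genes to which it gave an adjusted p. Its decreases included H2B gene Hist2h2bb (log2 -0.70, DESeq2 adjusted p = 0.00912) and Hist1h4f (-0.66, 0.0111). By limma their adjusted p were 0.0645 and 0.122. Hist1h2ag, called lower by limma, had 0.0861 by DESeq2. The authors' deposited table calls 3 histone genes Up (0.899% of all genes) and 10 Down (1.75% of all genes). For the histone genes the log2 fold changes of the authors' deposited table equal those of the DESeq2 fit here, so these calls are no separate result. Without WT footprint library 1 the decreases numbered 4, and without WT footprint library 2 they numbered 5.

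Hist1h2bh rose by 1.45 ± 0.26 SE on the log2 scale (limma adjusted p = 0.00786) and Hist1h2bj by 1.03 ± 0.25 (adjusted p = 0.0314), where their input changed by 0.09 and -0.09 without passing the test. Input of Hist1h2bh was 30.4 and 33.2 in KO libraries and 24.7 and 35.7 in WT libraries. Input of Hist1h2bj was 13.2 and 18.0 in KO libraries and 14.8 and 18.3 in WT libraries. Hist1h2af rose by 0.91 ± 0.08 (adjusted p = 0.000138), and its input fell further than its footprints. In the other direction, Hist1h3c had -1.10 ± 0.16 (adjusted p = 0.00286) and Hist1h4h had -1.01 ± 0.23 (adjusted p = 0.0239). Hist1h4d had -0.95 ± 0.08 (adjusted p = 0.00013), Hist1h4c -0.87 ± 0.21 (0.0301), Hist4h4 -0.77 ± 0.18 (0.0284; edgeR 0.0588) and Hist1h4b -0.75 ± 0.13 (0.00627). Hist1h1d had -0.75 (adjusted p = 0.0011), Hist1h1e -0.67 (0.0243) and Hist1h2ag -0.66 (0.0329; edgeR 0.0628). The interaction fit also gives a gene 1 variance over both kinds of library, so errors can be too small for genes with few input reads. For Hist1h4d the SE was 0.08 in the interaction and 0.10 in input alone, and for Hist1h3c it was 0.16 and 0.15. Of 11 histone genes called in both input and footprints, 6 had opposite directions, each higher in input and lower in footprints. Those with a called interaction were Hist1h3c, Hist1h4c, Hist1h4d, Hist1h4h and Hist4h4. The share of all genes with opposite calls was not counted, so whether this number is unusual is not known.

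Summed over a class, footprints of H4 genes were 37645 and 37987 normalized reads in KO libraries and 49414 and 50376 in WT libraries, a log2 ratio of -0.40. H1 sums were 10392 and 10743 in KO libraries and 13670 and 14199 in WT libraries, also a log2 ratio of -0.40. KO sums were below WT sums in these classes without overlap. H2A sums (29924 and 30333 in KO, 30802 and 30225 in WT) overlapped. H2B sums were 36739 and 36657 in KO libraries and 34945 and 34908 in WT libraries (log2 ratio 0.07), and H3 sums 3699 and 3645 in KO and 3344 and 3543 in WT libraries (0.09). Without its highest gene, the log2 ratio was -0.24 for H4 (without Hist1h4d), -0.24 for H1 (without Hist1h1d), 0.57 for H2B (without Hist2h2bb) and -0.042 for H3 (without Hist1h3f), where the sign turned. In input the log2 ratio was 0.43 for H4, 0.40 for H3, 0.36 for H2B, 0.19 for H1 and -0.59 for H2A, the last carried by Hist1h2af. No p is given for sums, since 2 against 2 libraries cannot go below 0.333 in an exact permutation test.

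**Figure D4:**
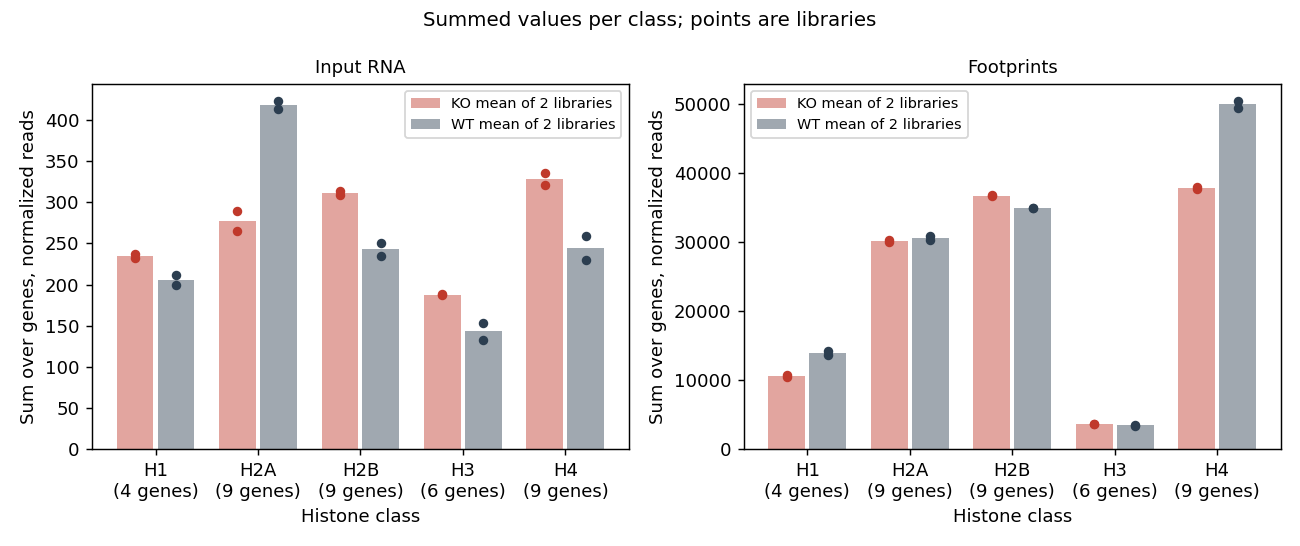
Summed normalized reads per histone class in input RNA (left) and footprints (right), with bars for the mean of 2 libraries and points for each library, KO beside WT. H1 and H4 footprint sums are lower in KO, H2A input is lower in KO, and the other input sums are higher in KO.

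Genes that make, process or accompany histone mRNAs are given for context. Slbp, which binds the stem-loop, had 442 and 439 normalized reads in KO input and 473 and 490 in WT input (log2 -0.13 ± 0.04, limma adjusted p = 0.0156). Its footprints were 1208 and 1155 in KO cells and 1236 and 1301 in WT cells (adjusted p = 0.37). Npat, an activator of histone gene transcription, had 331 and 318 in KO input and 369 and 370 in WT input (log2 -0.19 ± 0.05, adjusted p = 0.00215). Its footprints, 417 and 517 in KO cells and 437 and 398 in WT cells, did not pass (adjusted p = 0.459). Of 26 listed genes of histone pre-mRNA processing and turnover, 2 rose and 7 fell in input, 4 rose and 2 fell in footprints, and 2 rose in translational efficiency. The shares of all genes higher and lower, as above, were 17.9% and 18.6% in input, 6.3% and 6.22% in footprints and 5.11% and 4.66% in translational efficiency. Casp8ap2, a factor of histone gene expression, had 383 and 414 in KO footprints and 273 and 237 in WT footprints (log2 0.64 ± 0.13, adjusted p = 0.00143), while its input fell (log2 -0.20).

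Of 37 S phase genes, 3 rose and 12 fell in input (17.9% and 18.6% of all genes) and 4 rose and 6 fell in footprints (6.3% and 6.22% of all genes). Ccne2, a cyclin of S phase entry, had 202 and 227 in KO input and 295 and 292 in WT input (log2 -0.45 ± 0.06, adjusted p = 7.5e-08). Pcna, the sliding clamp of DNA polymerase, had 1423 and 1483 in KO footprints and 1924 and 1996 in WT footprints (log2 -0.43 ± 0.06, adjusted p = 3.69e-06). Prim1, a primase subunit, had -0.50 ± 0.09 in footprints (adjusted p = 0.000223). In the other direction, Cdk2 had 3548 and 3669 in KO footprints and 2829 and 2837 in WT footprints. The median log2 fold change of the S phase genes was -0.05 in input and 0.06 in footprints. The part of S phase genes in the histone results was not tested. Of 7 replication-independent histone genes, 4 rose and 1 fell in input (17.9% and 18.6% of all genes). In translational efficiency 2 of them fell (4.66% of all genes). In footprints the smallest adjusted p of the 7 were 0.0521 for H2afy (log2 0.19) and 0.0537 for H2afv (-0.49). H2afv, an H2A.Z gene, rose in input (205 and 187 in KO, 136 and 145 in WT; log2 0.47 ± 0.07, adjusted p = 1.43e-06) and fell in translational efficiency (log2 -0.97 ± 0.15, adjusted p = 0.0042). H3f3b, an H3.3 gene, fell in input (log2 -0.26 ± 0.02, adjusted p = 8.6e-13).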

How the data were processed

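The deposited table holds 10453 genes with 8 columns of normalized read counts, treated as signal, from 2 libraries each of KO and WT input RNA and footprints. Per the submitters' processing notes, Bowtie (no version) and mm10 were used. For the counter, annotation, strand and multiply matching reads, nothing is given in the sources used here. The values are whole multiples of 1 read (0.307 to 0.483 in input, 2.12 to 2.95 in footprints), with 100% of values whole within 0.001, so reads were recovered from them. The authors also deposited, per the file headers, log2 fold changes of translational efficiency per gene with raw and adjusted p-values and calls.

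The main test was limma 3.58.1 (R 4.3.3, trended variance) on log2(value + 1). All 37 histone genes passed the filter (mean of at least 1). The test used Benjamini-Hochberg adjustment over all genes and a threshold of 0.05. Fold changes on this scale understate those of low genes. Input and footprints were fitted separately, and translational efficiency over all 8 libraries. edgeR 4.0.16 and DESeq2 1.42.0 on recovered reads (with edgeR, 3802 input calls, 1473 footprint calls and 1343 efficiency calls), pseudocounts of 0.5 and 5, filters, a replicate block and left-out libraries were alternatives. The fits were tested on simulated data with the same dispersion for input and footprints. Changes were placed in genes drawn at random above a mean level, so the simulation was not aimed at genes with few input reads. Footprint values of each library are given for 25 genes. These are the 3 members of each class with the highest mean and up to 6 largest changes each way per comparison. Input values of each library are given for only some of them. Other genes named were chosen after seeing values. The members and lists were chosen with earlier results of these data known.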

Additional observations from a re-analysis of the deposited data

Results flagged for a closer look

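The 5 genes below, of the H3 and H4 classes, had higher KO input and lower KO footprints, each past the threshold, with a called interaction of genotype and library kind, so their changes differed between the kinds of library. These log2 interactions (KO over WT in footprints minus that in input) were -1.10 for Hist1h3c, -1.01 for Hist1h4h, -0.95 for Hist1h4d, -0.87 for Hist1h4c and -0.77 for Hist4h4. The input increases of these genes were not called by DESeq2, and edgeR's adjusted p for the input increases of Hist1h4c and Hist4h4 were 0.075 and 0.0632. The share of all genes with this pattern was not counted, and the errors of the interactions can be too small, as said above.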

How the results depend on the processing

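Of 1809 values of named histone genes under other settings, 1663 stayed on the same side of the threshold, 134 lost the call, 12 gained one and 0 called values reversed. The 1663 include 14 uncalled values that changed sign. Input increases numbered 6 without the variance trend, 0 with DESeq2 (6 at an unadjusted p under 0.05, 11 called by edgeR) and 4 to 12 with 1 library left out. Footprint increases and decreases numbered 0 and 0 without the trend (8 and 10 at an unadjusted p under 0.05), 7 and 9 with DESeq2, and 6 and 7 with all 8 libraries in 1 fit. Shares of all genes without the trend, with all 8 libraries in 1 fit or with a library left out are not given here. Translational efficiency increases and decreases numbered 1 and 4 without the trend, and decreases 4 to 8 with 1 library left out. Genes with footprints below input numbered 0 in each genotype when at least 20 reads were required, which leaves out Hist1h4i, and 1 to 2 in WT cells with 1 library left out. Footprint class log2 ratios on reads scaled to each library's listed total were -0.049 (H2A), 0.041 (H2B), -0.43 (H4) and -0.19 (all). Without the highest gene of each class they were -0.24 (H1), -0.0635 (H2A), 0.57 (H2B), -0.042 (H3, where the sign turned), -0.24 (H4) and -0.052 (all), and 0.045 for all histone genes in input. The cause was not tested. With a replicate block the counts of higher and lower genes were 13 and 1 in input, 13 and 14 in footprints, 3 and 9 in translational efficiency and 35 and 1 for footprints against input. Same-numbered libraries correlated between -0.024 and 0.016 in their deviations, so no effect shared by number was seen. This does not show whether same-numbered libraries came from the same culture. Where a library was left out, the lone library of its group was assumed to vary like the rest. Few input reads per histone gene limit the input and efficiency results.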

Other observations

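Histone chaperones and importers, the proteins that carry and deposit histones, were all listed (34 genes). In KO cells 5 rose and 15 fell in input, 8 rose and 5 fell in footprints, and 12 rose and 2 fell in translational efficiency. The shares of all genes higher and lower were 17.9% and 18.6% in input, 6.3% and 6.22% in footprints and 5.11% and 4.66% in translational efficiency. Asf1b, a carrier of H3 and H4, had 888 and 936 normalized reads in KO footprints and 629 and 595 in WT footprints (log2 0.57 ± 0.08 SE, limma adjusted p = 2e-05), and rose in input (log2 0.41). Asf1a, its paralog, had 169 and 174 in KO footprints and 250 and 274 in WT footprints (log2 -0.61 ± 0.16, adjusted p = 0.0122), and fell in input (log2 -0.34). Nasp, a chaperone of H3 and H4 and of H1, fell in input (log2 -0.26 ± 0.03, adjusted p = 1.7e-08), as did Dek (log2 -0.30). In translational efficiency the importer genes Ipo7 (log2 0.49 ± 0.04, adjusted p = 6.14e-05) and Tnpo1 (0.44 ± 0.05, adjusted p = 0.000378) rose.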
